A study of Mus musculus with 12 samples.

Results

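The subject is the response of sedentary quadriceps muscle to GW1516 given alone, read as the 3 arrays of the GW group against the 3 arrays of the vehicle group, which are 6 of the 12 arrays of the series. The arrays were chosen by their titles, and probe sets of the array's own controls were left out. Vehicle mice and GW mice were sedentary C57Bl/6J mice. The former received vehicle and the latter 5 mg/kg of GW1516 each day, a synthetic ligand that activates PPARδ, in both groups over 4 weeks. Every array carried quadriceps RNA pooled from 3 mice, so a group stands for pools and not for single animals, and p-values measure only the spread between those pools. The other 6 arrays came from exercise-trained mice of the same strain, 3 with vehicle (exercise) and 3 with GW1516 at the same dose (combination). They entered the fit for its estimate of the spread, and the drug effect was also read between them.

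PPARδ is a transcription factor that fatty acids and synthetic ligands switch on. It binds DNA with RXR at pairs of AGGTCA-like half-sites and raises genes for the uptake, transport and oxidation of fatty acids, and skeletal muscle is among the tissues in which it is best studied. Fatty acids enter the fibre through transport and binding proteins, cross the mitochondrial membranes as carnitine esters, and are shortened by beta-oxidation, while pyruvate dehydrogenase kinases and the enzymes that set fructose bisphosphate levels adjust how much glucose is burned.

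The tests covered 13575 probe sets whose mean signal exceeded 28.4, and these held 7940 genes with 1 symbol. Median signals of the arrays ran from 48.4 to 57.2. Log2 fold changes had a typical (median) standard error of 0.21, a precision that the number of arrays limits. The tissue label was checked against 15 skeletal muscle fibre markers. All 15 were measured, with summed signals of 210469 to 219274 in the vehicle arrays and 206010 to 257438 in the GW arrays. The muscle creatine kinase gene Ckm read 18590, 19576 and 19936 in the vehicle arrays and 21709, 17622 and 23327 in the GW arrays, and the groups overlapped. In bulk muscle, fewer cells of a type and less RNA per cell cannot be told apart.

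Array GW 1 stood apart and is therefore described before the results. In 23 probe sets it lay over 2-fold above each of the other 11 arrays, against 0 to 5 such probe sets in any other array. Its Pearson correlation over probe sets was 0.95 with GW 2, with GW 3 and with each vehicle array. GW 2 correlated at 0.96 with GW 3 and at 0.96 to 0.97 with the vehicle arrays, and GW 3 at 0.95 to 0.96 with the vehicle arrays. Probe sets over 2-fold apart numbered 995 between GW 1 and GW 2 and 705 between GW 2 and GW 3, against 608 to 936 between vehicle arrays. From the vehicle arrays, 970 to 1171 were that far apart in GW 1, 485 to 739 in GW 2 and 774 to 1032 in GW 3. Results below include GW 1 unless stated, and the value without GW 1 is given wherever leaving it out changed a call.

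GW1516 changed few genes past the test in sedentary muscle. Those that rose included genes of fatty acid uptake, transport and oxidation, and also Fbp2, an enzyme of glucose and glycogen synthesis. Against vehicle, 13 probe sets passed an adjusted p of 0.05 in limma, which is 0.0958% of those tested. Of these, 10 probe sets of 8 genes (0.0737%) were higher with the drug: Acadl, Ucp3, Fbp2, Slc27a1, Mlycd, Acaa2, Fabp3 and Slc25a20. The 3 lower ones (0.0221%) belonged to 3 genes, Pfkfb3, Gadd45g and Dusp10. The lower count was 1 without vehicle 2 and 1 without vehicle 3. All probe sets that passed had 3 GW arrays beyond all 3 vehicle arrays. Among all probe sets tested, 752 (5.54%) had every GW array above every vehicle array and 742 (5.47%) had every GW array below. With each of the 7940 genes read from its brightest probe set, 4.71% were separated upwards in this way and 6.22% downwards. The difference was positive in 46.5% of these genes. Counts for the gene lists below are to be read beside these shares.

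**Figure D1:**
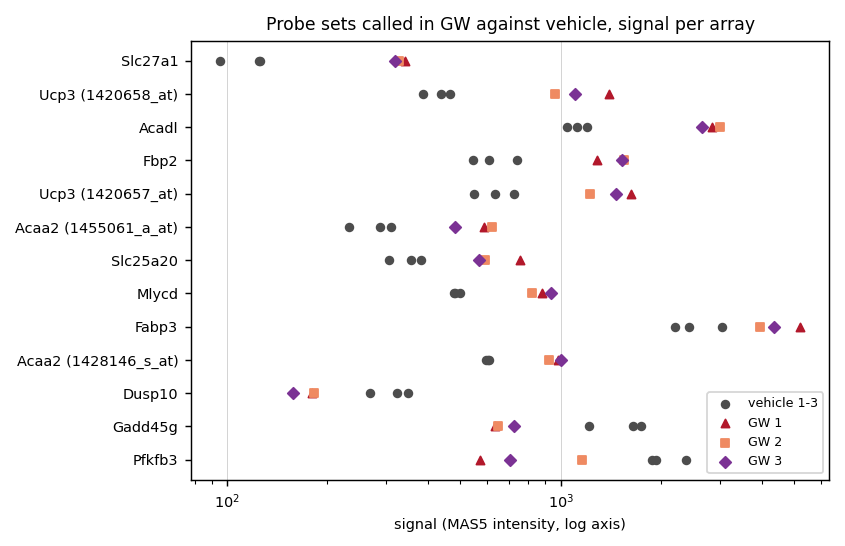
Signal on a log axis of each probe set that passed the test, 1 point per array, with grey circles for the 3 vehicle arrays and coloured symbols for GW 1, GW 2 and GW 3. The 10 upper probe sets have all GW arrays to the right of all vehicle arrays and the 3 lower ones have all GW arrays to the left.

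Across all probe sets most differences were small, and more of the larger ones were higher than lower, though above 2-fold the split was nearly even without GW 1. The log2 fold change was positive in 49.8% of them, with a 5th percentile of -0.44 and a 95th percentile of 0.57. Differences above 1.5-fold numbered 637 higher and 355 lower, and differences above 2-fold numbered 151 higher and 71 lower. An unadjusted p under 0.05 was reached by 872 probe sets, 499 higher and 373 lower. Without GW 1 the differences above 2-fold became 139 higher and 140 lower, and 823 probe sets had an unadjusted p under 0.05, 422 higher and 401 lower.

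Promoters of 2 genes are shown as letters because their genes carried the clearest rises, written in the direction of transcription and ending at the base before the gene's start: 250 bases each from RefSeq, build GRCm38.p6. Capitals mark matches, on the strand shown, to the PPAR and RXR element AGGTCANAGGTCA with at most 2 mismatches, and exact AGGTCA half-sites.
Ucp3, chr7:100472741-100472990, plus strand: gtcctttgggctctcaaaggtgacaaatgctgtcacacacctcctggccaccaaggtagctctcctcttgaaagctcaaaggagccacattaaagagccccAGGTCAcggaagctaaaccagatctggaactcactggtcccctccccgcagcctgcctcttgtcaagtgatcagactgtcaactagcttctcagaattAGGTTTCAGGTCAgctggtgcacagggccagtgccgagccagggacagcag
Acadl, chr1:66863310-66863559, minus strand: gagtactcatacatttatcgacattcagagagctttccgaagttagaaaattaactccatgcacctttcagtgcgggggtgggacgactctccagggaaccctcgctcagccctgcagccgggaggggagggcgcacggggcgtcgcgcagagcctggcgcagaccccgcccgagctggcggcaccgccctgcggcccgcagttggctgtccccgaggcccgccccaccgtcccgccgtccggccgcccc

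Ucp3 encodes a mitochondrial carrier of the uncoupling protein family that is found mainly in skeletal muscle, and its promoter window held 1 match to the full element, AGGTTTCAGGTCA with 2 mismatches, starting 51 bases before the gene's start. The window also held 2 exact half-sites, of which 1 lies inside that match. Acadl encodes the long-chain acyl-CoA dehydrogenase that opens a round of mitochondrial beta-oxidation, and its window held neither. Both strands were searched. Of the 11 genes that passed the test, 10 were counted, with 13 promoters in all, and 1 of these genes, Ucp3, had a match. Acaa2 was left out of this count, so whether its promoter holds a match is not reported here. The shares over all promoters that follow had no such omission. Over all 32851 promoters of the same length, 3.24% held the element with at most 2 mismatches, 0.0335% held it exactly and 14.0% held the half-site. A match describes letters and not a bound site, and a window without a match says only that these letters are not in these 250 bases.

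Among the probe sets that passed, the one with the largest rise belonged to a gene of fatty acid uptake. Slc27a1, a fatty acid transport protein of the plasma membrane, read 95.3, 126 and 125 in vehicle arrays 1 to 3 and 342, 329 and 319 in GW arrays 1 to 3. The GW arrays lay close together and far above the vehicle arrays, a log2 fold change of 1.53 ± 0.15 (SE; 2.88-fold, adjusted p = 0.000181). Fabp3, the muscle and heart fatty acid binding protein of the cytosol, read 3048, 2420 and 2195 in the vehicle arrays and 5221, 3946 and 4359 in the GW arrays. It rose by 0.82 ± 0.12 on the log2 scale (adjusted p = 0.00779), with GW 1 highest, and the value without GW 1 was 0.71 (adjusted p = 0.0363). Fabp3 missed the threshold without vehicle 2 (adjusted p = 0.0653), without an intensity trend in the variances (0.201) and when only the 6 sedentary arrays were fitted (0.109). Of the 16 genes tested in this list, 2 passed the test and 13 differences were positive, against 46.5% of all genes. All GW arrays lay above all vehicle arrays in 6, against 4.71% of all genes, and below them in 1, against 6.22%. The fatty acid transporter Cd36 overlapped between groups, with 390, 297 and 307 against 438, 368 and 344 in 1 probe set and a log2 fold change of 0.21 ± 0.19 (adjusted p = 0.878). The median of the list was 0.22, with 0.10 without GW 1 and 0.07 without vehicle 2, against -0.02 over all genes tested.

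Genes of 2 steps of the carnitine route rose. Mlycd, malonyl-CoA decarboxylase, which removes the malonyl-CoA that blocks carnitine palmitoyltransferase, read 498, 482 and 478 with vehicle and 881, 818 and 935 with the drug. Both groups were tight, and the log2 fold change was 0.85 ± 0.10 (1.80-fold, adjusted p = 0.000911). Slc25a20, the carrier that exchanges acylcarnitine for carnitine across the inner mitochondrial membrane, passed in probe set 1423109_s_at with 305, 356 and 383 against 756, 592 and 571 (log2 fold change 0.87 ± 0.15, adjusted p = 0.0459). Its other probe set, 1423108_at, gave 734, 642 and 519 against 1068, 1389 and 1079 (0.90 ± 0.16, adjusted p = 0.0571), so both probe sets were separated between groups but only the former passed. Without GW 1 neither passed, at adjusted p of 0.17 and 0.0965. The call of the former also ended without each of 10 other arrays taken in turn, at adjusted p of 0.0515 (without exercise 1) to 0.205 (without vehicle 1), and remained without exercise 3. The latter passed without vehicle 1 (adjusted p = 0.0338) and without exercise 1 (0.0306). Cpt1a, the liver-type outer membrane carnitine palmitoyltransferase, read 63.2, 58.9 and 58.3 with vehicle and 98.0, 143 and 128 with the drug. Its groups did not overlap, and the log2 fold change of 1.02 ± 0.23 did not pass (adjusted p = 0.28). Crat, carnitine acetyltransferase, differed by 0.24 ± 0.07 (adjusted p = 0.555), and Cpt2, the inner membrane palmitoyltransferase, by -0.10 ± 0.12 with overlapping groups. Of the 7 genes tested, 1 passed when each gene was read from its brightest probe set. In this list 4 were separated upwards, against 4.71% of all genes, and the median was 0.24, or 0.26 without GW 1.

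In mitochondrial beta-oxidation the 2 genes that passed were an entry enzyme and a thiolase. Acadl read 1196, 1117 and 1043 in the vehicle arrays and 2829, 2999 and 2651 in the GW arrays, a rise of 1.34 ± 0.10 on the log2 scale (2.53-fold, adjusted p = 1.74e-05). It had the smallest adjusted p of the comparison, and the value without GW 1 was 1.34 as well. Acaa2, the thiolase that cleaves the shortened acyl-CoA, passed in 2 of its 3 probe sets. Probe set 1428146_s_at read 611, 604 and 598 against 979, 925 and 1002, a log2 fold change of 0.68 ± 0.08 (adjusted p = 0.00131). Probe set 1455061_a_at read 232, 310 and 287 against 589, 621 and 484 (1.03 ± 0.17, adjusted p = 0.0226), and it did not pass without GW 1 (adjusted p = 0.1), GW 2 (0.0969), vehicle 1 (0.0996) or vehicle 3 (0.0666). The remaining one, 1428145_at, read 245, 469 and 398 against 409, 467 and 409, so its groups overlapped and its difference was 0.26 ± 0.22.

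The remaining beta-oxidation genes differed by less. Etfb, the beta subunit of the flavoprotein that takes electrons from acyl-CoA dehydrogenases, read 2551, 2744 and 2563 against 3407, 3151 and 3230, separated but not past the test (0.32 ± 0.07, adjusted p = 0.213). Hadhb, the thiolase subunit of the trifunctional protein, read 2947, 2898 and 2733 against 3773, 3580 and 3351 (0.32 ± 0.08, adjusted p = 0.41). Its partner Hadha differed by 0.25 ± 0.10, the electron acceptor Etfdh by 0.34 ± 0.10, and Ech1 and Eci2, isomerases for unsaturated chains, by 0.30 ± 0.10 and 0.43 ± 0.13, and in each of these the groups did not overlap. Of the 21 genes tested, 18 differences were positive, against 46.5% of all genes, with a median of 0.17 (0.19 without GW 1 and 0.09 without vehicle 1). In this list 8 were separated upwards, against 4.71% of all genes, and 0 downwards, against 6.22%. The summed signal of the list was 25752 to 26442 in the vehicle arrays and 30502 to 32130 in the GW arrays. In the peroxisomal list of 15 genes 0 passed and 3 were separated upwards, against 4.71% of all genes. The list's median was 0.05, or 0.19 without GW 1 and 0.03 without vehicle 1. Cat, the peroxisomal enzyme catalase, which breaks down hydrogen peroxide, is its member with the smallest p and is taken up again below with the genes that depended on GW 1.

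Ucp3 rose in both of its probe sets. Probe set 1420658_at read 439, 386 and 465 in the vehicle arrays and 1398, 963 and 1103 in the GW arrays, a log2 fold change of 1.41 ± 0.13 (2.66-fold, adjusted p = 0.000119). Probe set 1420657_at read 723, 549 and 635 against 1623, 1220 and 1468, a log2 fold change of 1.18 ± 0.12 (2.26-fold, adjusted p = 0.000181). In both, GW 1 was highest and GW 2 lowest of the GW arrays, and GW 2 was still above every vehicle array. Without GW 1 the values were 1.27 and 1.08, both past the test.

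Genes that set the balance between glucose breakdown and its reversal changed in opposite directions. Fbp2, the muscle form of fructose bisphosphatase, an enzyme of glucose and glycogen synthesis from smaller molecules, read 545, 741 and 611 with vehicle and 1288, 1541 and 1528 with the drug. It rose by 1.21 ± 0.12 on the log2 scale (2.31-fold, adjusted p = 0.000165), and by 1.29 without GW 1. Pfkfb3, which makes the fructose bisphosphate isomer that activates phosphofructokinase and so speeds glycolysis, read 1873, 2375 and 1930 against 574, 1157 and 707 in probe set 1416432_at. It fell by 1.40 ± 0.19 on the log2 scale (2.64-fold lower, adjusted p = 0.00529), with GW 2 the least reduced array and still below every vehicle array. Without GW 1 it fell by 1.18 (adjusted p = 0.016). The call ended without an intensity trend (adjusted p = 0.138) and with only the 6 sedentary arrays (0.078). A dimmer Pfkfb3 probe set, 1456676_a_at, read 178, 265 and 376 against 202, 277 and 267, with overlapping groups and a difference of -0.08 ± 0.22, so the fall was seen in 1 of 2 probe sets. Pdk4, a kinase that inhibits pyruvate dehydrogenase and spares glucose, read 2074, 1229 and 1284 against 5335, 2714 and 2954. The groups did not overlap, but GW 1 was nearly as far from the other GW arrays as these were from vehicle, and the log2 fold change of 1.24 ± 0.23 did not pass (adjusted p = 0.074, and 0.93 with adjusted p = 0.167 without GW 1). Pdk4 passed when vehicle 1, the highest vehicle array, was left out (adjusted p = 0.0146). Of the 24 glycolysis and glycogen genes tested, 0 passed, 14 differences were positive, and the median was 0.01, with 0.03 without GW 2 and -0.04 without GW 3.

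The other 2 genes that fell act in stress signalling. Gadd45g, a growth arrest and stress gene that acts in MAP kinase signalling, read 1215, 1651 and 1738 with vehicle and 633, 647 and 722 with the drug. The GW arrays were tightly grouped below the vehicle arrays, a fall of 1.19 ± 0.18 on the log2 scale (2.28-fold lower, adjusted p = 0.0112). Dusp10, a phosphatase that switches off p38 and JNK kinases, read 269, 323 and 348 against 180, 182 and 157 in probe set 1417164_at, a fall of 0.85 ± 0.14 (1.80-fold lower, adjusted p = 0.0246). Its other probe set, 1417163_at, read 295, 324 and 329 against 146, 167 and 198, also without overlap, but did not pass (-0.90 ± 0.23, adjusted p = 0.373). Without GW 1 the sizes were -1.15 for Gadd45g and -0.88 for Dusp10, and both missed the threshold at an adjusted p of 0.0581. Both also missed it without GW 2 (0.0529 for each), without vehicle 2 (0.095 and 0.179) and without vehicle 3 (0.0672 and 0.116), and Dusp10 without GW 3 (0.182).

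Other genes of the same list did not pass. Txnip, which binds thioredoxin and restrains glucose uptake, read 3186, 3252 and 3178 against 2466, 2264 and 2352 (-0.44 ± 0.11, adjusted p = 0.35). Ddit4, an inhibitor of mTOR signalling, read 276, 401 and 603 against 154, 222 and 159 (-1.21 ± 0.46, adjusted p = 0.716). In both genes the groups did not overlap. Of the 17 genes tested, 4 were separated downwards, against 6.22% of all genes, and 1 upwards, against 4.71%. The median was 0.03, with -0.04 without GW 1, -0.06 without vehicle 3 and 0.09 without vehicle 1.

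The 26 PPAR target genes tested hold many of the genes above and are summarised together. The list came from general knowledge of the receptor but was written with earlier results of these data known, so its counts are descriptions. The 6 that passed were all higher, against 7 higher and 3 lower among all 7940 genes. All 3 GW arrays lay above all vehicle arrays in 18 of the 26, against 4.71% of all genes, and below them in 0, against 6.22%. The difference was positive in 23, against 46.5% of all genes. The median log2 fold change was 0.51 with and 0.49 without GW 1, with a range of 0.34 to 0.63 over all alternatives, and the medians of GW 1, GW 2 and GW 3 against the vehicle mean were 0.57, 0.45 and 0.52. The list's summed signal was 22911 to 26651 in the vehicle arrays and 32811 to 37679 in the GW arrays. Of the 32 genes on the list, 28 had a probe set of their own and 26 of these passed the filter on dim signals.

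**Figure D2:**
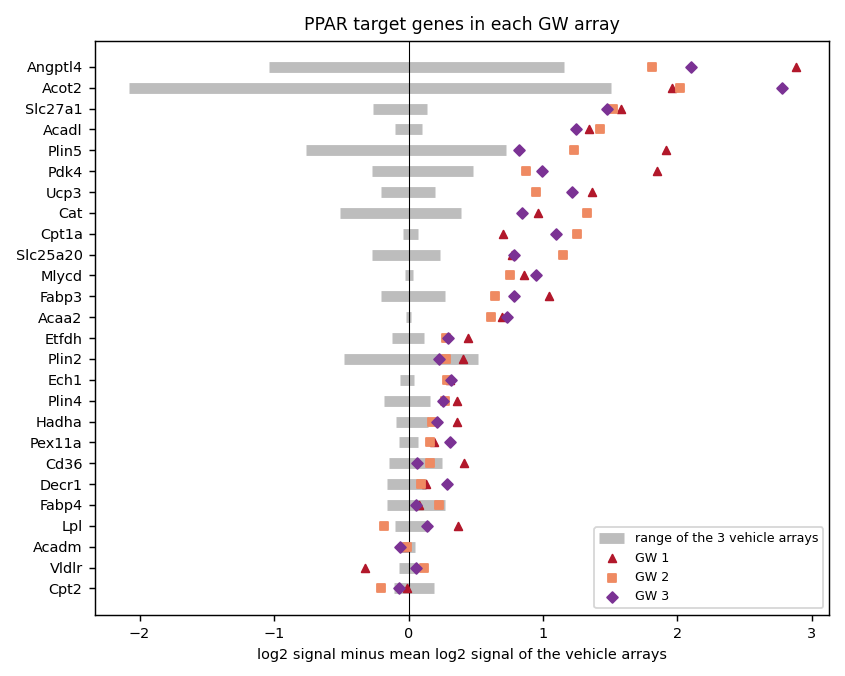
Difference of each GW array from the mean of the vehicle arrays, in log2 units, for the 26 PPAR target genes tested, with a grey bar for the range of the 3 vehicle arrays. In 18 genes the 3 symbols lie to the right of the bar, and the vehicle range is widest for the dim genes Acot2 and Angptl4.

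Among PPAR targets the spread between vehicle arrays differed widely. Angptl4, a secreted inhibitor of lipoprotein lipase, read 92.2, 37.9 and 20.1 with vehicle and 304, 145 and 177 with the drug. The groups did not overlap and the difference was 2.26 ± 0.66, but it did not pass (adjusted p = 0.528). Plin5, a lipid droplet coat protein of oxidative tissue, read 132, 82.5 and 47.2 against 302, 188 and 142 (1.32 ± 0.37, adjusted p = 0.471, and 1.02 without GW 1). Vehicle 1 was the highest vehicle array and GW 1 the highest GW array in both genes. Acadm, the medium-chain acyl-CoA dehydrogenase, and Lpl, lipoprotein lipase, had overlapping groups, and Lpl differed by 0.11 ± 0.16, or -0.02 without GW 1. In the whole lipid droplet and lipolysis list 0 of 12 genes passed and 5 were separated upwards, against 4.71% of all genes. The list's median was 0.30, or 0.23 without GW 1 and 0.14 without vehicle 2.

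Respiratory chain genes differed little and none passed. Of 70 electron transport and ATP synthase genes tested, 0 passed and 51 differences were positive, against 46.5% of all genes. In this list 13 were separated upwards, against 4.71% of all genes, and 2 downwards, against 6.22%. The median was 0.06, or 0.05 without GW 1 and 0.09 without GW 2. Ndufab1, the acyl carrier subunit of complex I, had the smallest p and read 2783, 2819 and 2798 against 3234, 3267 and 3186 (0.21 ± 0.07, adjusted p = 0.684). Of 17 tricarboxylic acid cycle genes, 0 passed, 14 differences were positive and the median was 0.09, or 0.04 without GW 1 and 0.06 without vehicle 1. Suclg1, a succinyl-CoA ligase subunit, read 2191, 2100 and 2292 against 2533, 2590 and 2674 without overlap (0.24 ± 0.07, adjusted p = 0.488).

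None of the receptor and coactivator genes passed. Of 20 PPARs and oxidative regulators tested, 0 passed, 11 differences were positive and the median was 0.01, with -0.05 without GW 3 and 0.02 without GW 1. Ppargc1a, the coactivator PGC-1 alpha, read 728, 435 and 436 with vehicle and 918, 426 and 469 with the drug in its brightest probe set, 1460336_at. The groups overlapped, the highest value of each group was array 1, and the difference was 0.14 ± 0.24, or -0.21 without GW 1. Nrip1, a corepressor of nuclear receptors, read 238, 273 and 315 against 305, 463 and 466 (0.56 ± 0.18, adjusted p = 0.597, and 0.77 without GW 1). Ppard, the gene of the drug's target, lay below the filter, with signals of 1.97, 2.37 and 2.58 in the vehicle arrays and 3.78, 2.36 and 5.75 in the GW arrays. Those signals were under the median of 4.88 of 27 bacterial control probe sets in 5 of these 6 arrays, so its level was not measured above background.

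Fat synthesis genes showed a mixed pattern with fat cell markers beside them. In the fatty acid synthesis and desaturation list 0 of 14 genes passed, and the median was 0.20, or 0.28 without GW 1. Of these genes 3 were separated upwards, against 4.71% of all genes, and 1 downwards, against 6.22%. Fasn, fatty acid synthase, read 201, 91.7 and 131 against 225, 271 and 293 (0.96 ± 0.42, adjusted p = 0.757). Scd1, a desaturase, read 1420, 844 and 1209 against 1170, 1681 and 1880, with overlapping groups (0.45 ± 0.28, and 0.65 without GW 1). Of 9 adipocyte markers tested 0 passed, 7 differences were positive, the median was 0.11 (0.27 without GW 1, 0.26 without vehicle 1, 0.07 without GW 2, 0.05 without vehicle 3), and the summed signal was 9486 to 10398 in the vehicle arrays and 9612 to 12005 in the GW arrays. Adipoq, the gene of the fat cell hormone adiponectin, read 331, 210 and 365 against 248, 346 and 363. The part of fat cells in the synthesis genes was not tested.

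Fibre type genes varied widely between pools of a group. In the slow fibre list 0 of 9 genes passed and 0 were separated, with medians of 0.75, -0.29 and 0.22 in GW 1, GW 2 and GW 3. Myh2, the fast oxidative myosin heavy chain, read 1191, 384 and 248 with vehicle and 3205, 253 and 569 with the drug, and Mb, the gene of myoglobin, read 5513, 3931 and 3225 against 7842, 2804 and 4670. In both genes array 1 was the highest of its group and GW 2 lay below or near the lowest vehicle arrays. The slow list's median was 0.19 with GW 1 and -0.10 without it, so its direction turned on that array, and it was 0.45 without GW 2. Among 13 fast fibre genes 0 passed, 12 differences were positive and the median was 0.12, or 0.21 without GW 2 and 0.06 without GW 3. Myh7, the slow myosin heavy chain, lay below the filter. The part of the pools' fibre content in the drug effect was not tested.

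**Figure D3:**
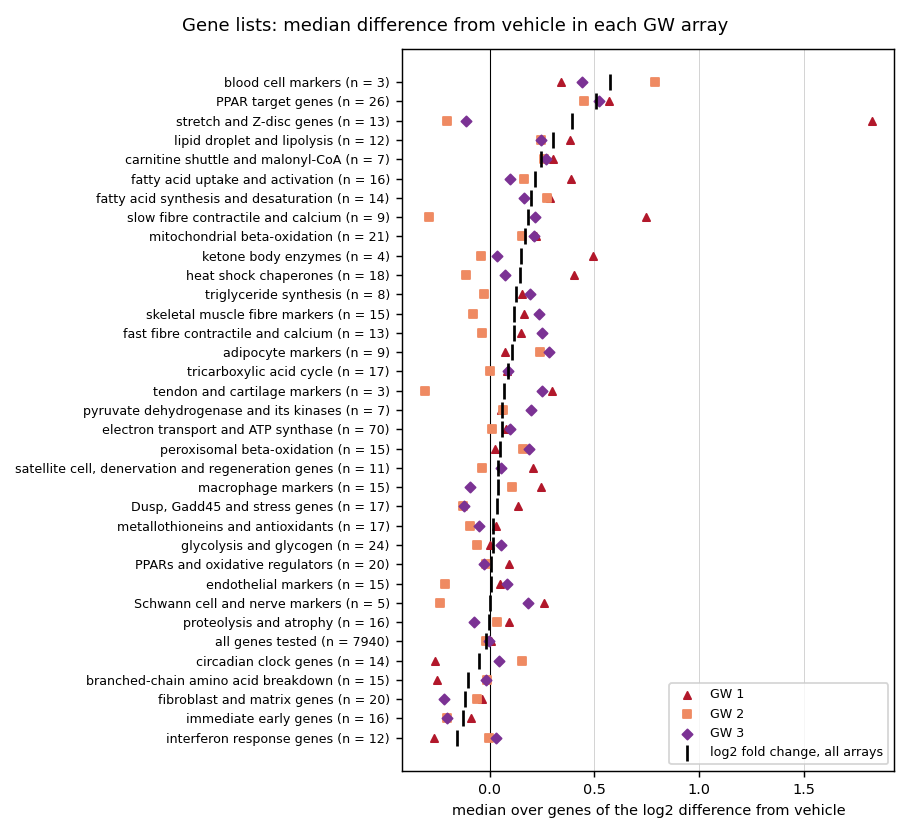
Median over the tested genes of each list of the log2 difference from vehicle, with 1 symbol for each GW array and a black tick for the fold change over all 3. PPAR target genes lie at 0.57, 0.45 and 0.52 in the 3 GW arrays, while stretch and Z-disc genes lie at 1.83 in GW 1, -0.20 in GW 2 and -0.11 in GW 3.

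Immediate early, clock and protein breakdown genes gave no calls. Among 16 immediate early genes, 11 differences were negative, 3 were separated downwards, against 6.22% of all genes, and the median was -0.13, or -0.16 without GW 1. Klf10, a transcription factor induced by TGF-beta, read 184, 201 and 172 against 113, 74.7 and 65.0 without overlap (-1.18 ± 0.29, adjusted p = 0.35). Nr1d1, the clock repressor REV-ERB alpha, read 353, 535 and 504 against 206, 349 and 210 (-0.89 ± 0.22, adjusted p = 0.35), while the clock list's median was -0.05 with all arrays, 0.16 without GW 1 and -0.18 without GW 2. In the proteolysis list of 16 genes Foxo1, a transcription factor of fasting and atrophy, read 218, 188 and 251 against 294, 361 and 331 (0.59 ± 0.15, adjusted p = 0.35). Its relative Foxo3 read 692, 392 and 454 against 222, 356 and 350 (-0.72 ± 0.24, adjusted p = 0.664, and -0.50 without GW 1), so the 2 relatives were separated in opposite directions and neither passed.

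Branched-chain amino acid and interferon genes had mostly negative differences with all arrays, and less so without GW 1. Of 15 genes of branched-chain amino acid breakdown 12 differences were negative and 3 positive, against 46.5% positive among all genes. Without GW 1, 6 were positive, against 46.7% of all genes. The list's medians were -0.25, -0.01 and -0.02 in GW 1, GW 2 and GW 3. Auh, an enzyme of leucine breakdown, read 881, 958 and 881 against 713, 708 and 775 without overlap (-0.31 ± 0.09, adjusted p = 0.544). Of 12 interferon response genes 10 differences were negative and 2 positive with all arrays, and 6 were positive without GW 1. The medians were -0.26, -0.01 and 0.03 in the 3 GW arrays. The interferon list's median was -0.16 with all arrays, -0.02 without GW 1 and -0.32 without GW 2.

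Markers of other cell types gave 0 calls. The median was 0.04 for 15 macrophage markers (0.42 without vehicle 1, and -0.01 to 0.42 over all alternatives), 0.00 for 15 endothelial markers (-0.12 without vehicle 3, 0.05 without GW 2) and -0.12 for 20 fibroblast and matrix genes (-0.03 without vehicle 1, -0.19 without vehicle 3). The summed macrophage signal was 1862 to 3730 in the vehicle arrays, with vehicle 1 highest, and 1971 to 2736 in the GW arrays. The endothelial sum was 2357 to 2471 against 2115 to 2498, and the matrix sum was 10236 to 12792 against 10588 to 11534, so each of these ranges overlapped. Cdh5, the cadherin of endothelial junctions, read 153, 161 and 144 against 66.2, 97.0 and 116 without overlap and did not pass (-0.75 ± 0.21, adjusted p = 0.49, and -0.53 without GW 1). Few blood and nerve markers were bright enough to test. Of 3 blood cell markers 1 was separated upwards, and the median was 0.58 (0.69 without GW 1, 0.13 without vehicle 3). Of 5 Schwann cell and nerve markers 1 was separated upwards, against 4.71% of all genes, and 2 downwards, against 6.22%. Their median was 0.00 (-0.23 without GW 1, 0.22 without GW 2).

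Beyond the genes above, those closest to the threshold were of several kinds. Dbi, the acyl-CoA binding protein, read 568, 356 and 499 against 734, 927 and 818 in probe set 1422432_at (0.82 ± 0.16, adjusted p = 0.101). Mybph, a myosin binding protein, read 2156, 2351 and 2611 against 3846, 3297 and 3805 (0.62 ± 0.14, adjusted p = 0.238). Polr1a, the large subunit of RNA polymerase I, differed by 1.68 ± 0.35 (adjusted p = 0.147). Its vehicle signals were dim, with 39.3, 28.6 and 33.6 against 88.1, 86.7 and 162. In the other direction Serpina1c, a serine protease inhibitor best known from liver, read 131, 65.5 and 103 against 23.0, 36.4 and 20.4 (-1.90 ± 0.38, adjusted p = 0.115). Its GW 1 and GW 3 signals lay under 23.5, the 95th percentile of the bacterial controls, so the size of its fall is uncertain. Sun2, a nuclear envelope protein, read 1331, 1075 and 1050 against 857, 825 and 868 (-0.43 ± 0.10, adjusted p = 0.238). Asb11 differed by -0.33 ± 0.08 (adjusted p = 0.311) and Smyd2, a lysine methyltransferase, by -0.44 ± 0.11 (adjusted p = 0.35, and -0.30 without GW 1). In Akr7a5, Fibp and Casc3 the differences were -0.38, -1.59 and -0.71. In all of the probe sets read here for these genes the groups did not overlap, and none passed. The Fibp value came from a dim probe set, with 85.6, 98.3 and 94.4 against 26.4, 52.5 and 20.8. Its GW 3 signal lay under 23.5, the 95th percentile of the bacterial controls. Another Fibp probe set read 67.7, 83.0 and 118 against 30.7, 68.3 and 72.1, with overlapping groups. The difference there was -0.71 ± 0.32, or -0.31 without GW 1. With 1 array left out, Dbi passed without vehicle 1 (adjusted p = 0.031), Mybph without exercise 1 (0.0223) and Smyd2 without GW 2 (0.0239).

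Leaving out GW 1 gave 11 calls (0.081%), 9 higher and 2 lower, and 9 of them were also among the 13. The 9 shared probe sets were those of Acadl, Fbp2, Slc27a1, Mlycd, Fabp3 and Pfkfb3, both of Ucp3, and 1428146_s_at of Acaa2. The 4 that missed the threshold without GW 1 were Gadd45g, Dusp10, Slc25a20 and the dimmer Acaa2 probe set. Their log2 fold changes without GW 1 were -1.15, -0.88, 0.75 and 1.00, which is close to the values of -1.19, -0.85, 0.87 and 1.03 with it.

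A further 2 probe sets passed without GW 1 but not with it in the same fit. Cat read 216, 189 and 210 in the vehicle arrays and 325, 569 and 395 in the GW arrays in probe set 1416430_at, so GW 1 was above vehicle but the lowest of the GW arrays. The log2 fold change was 1.03 ± 0.19 with GW 1 (adjusted p = 0.0664) and 1.21 without it (adjusted p = 0.0188), and with all arrays it also passed under cyclic loess normalization (adjusted p = 0.0491) and with array weights (0.00819). Another Cat probe set, 1416429_a_at, read 433, 233 and 361 against 646, 832 and 596. It passed neither with GW 1 (adjusted p = 0.138) nor without it (0.232). With array weights (adjusted p = 0.0262) and without vehicle 1 (0.0415) it did pass. Rgcc, a regulator of the cell cycle that responds to complement, read 1310, 954 and 853 with vehicle and 1399, 487 and 456 with the drug, so GW 1 was the highest of the 6 arrays and the other GW arrays the lowest. It differed by -0.59 ± 0.30 with GW 1 (adjusted p = 0.783) and fell by 1.12 without it (adjusted p = 0.00568). Its other probe set, 1438511_a_at, read 728, 335 and 364 against 542, 257 and 300, with overlapping groups and a difference of -0.68 without GW 1 (adjusted p = 0.815).

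The probe sets in which GW 1 was over 2-fold above every other array are described without a test, since they were chosen by that value. Of the 23, 21 had 1 symbol and belonged to 17 genes, and 8 of these genes were in the list of stretch and Z-disc genes. That list made up 13 of the 7940 genes tested and was written with earlier results of these data known. Ankrd2, a muscle ankyrin repeat protein, read 2388 in GW 1 and 74.3 to 306 in the other 11 arrays. Csrp3, the muscle LIM protein of the Z-disc, read 1470 in GW 1 and no more than 199.6 elsewhere. Mustn1, a small nuclear protein of muscle and skeleton, read 4142 against 406 to 687, and the cardiac-type ankyrin repeat protein Ankrd1 read 1296 against 73.9 to 190 in its brighter probe set.

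Stress genes outside that list were also high in GW 1. The small heat shock protein gene Hspb7 read 1466 in GW 1 and 67.7 to 242 elsewhere in probe set 1421289_at, and GW 1 was also the highest array in its other 2 probe sets. The stress transcription factor Atf3 read 374 against 14.6 to 104. The metal-binding Mt1 and Mt2 read 3288 and 1988 in GW 1, and vehicle 1, at 1080 and 720, was the highest of the other sedentary arrays in both. In 18 of the 21 probe sets vehicle 1 was the highest of the other 5 sedentary arrays. For Ankrd2 GW 2 and GW 3, at 105 and 89.4, lay within the range of the vehicle arrays, which read 233, 103 and 74.3. For Hspb7 they lay below it in probe set 1421289_at, at 67.7 and 74.3 against 109 to 144, and also in 1434927_at. In Hspb7 probe set 1421290_at GW 3, at 270, lay within the vehicle range of 233 to 548, and GW 2 lay below it at 194. For the cytokine receptor gene Tnfrsf12a GW 2 and GW 3 lay below the vehicle range, at 153 and 165 against 235 to 645 in its brighter probe set.

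**Figure D4:**
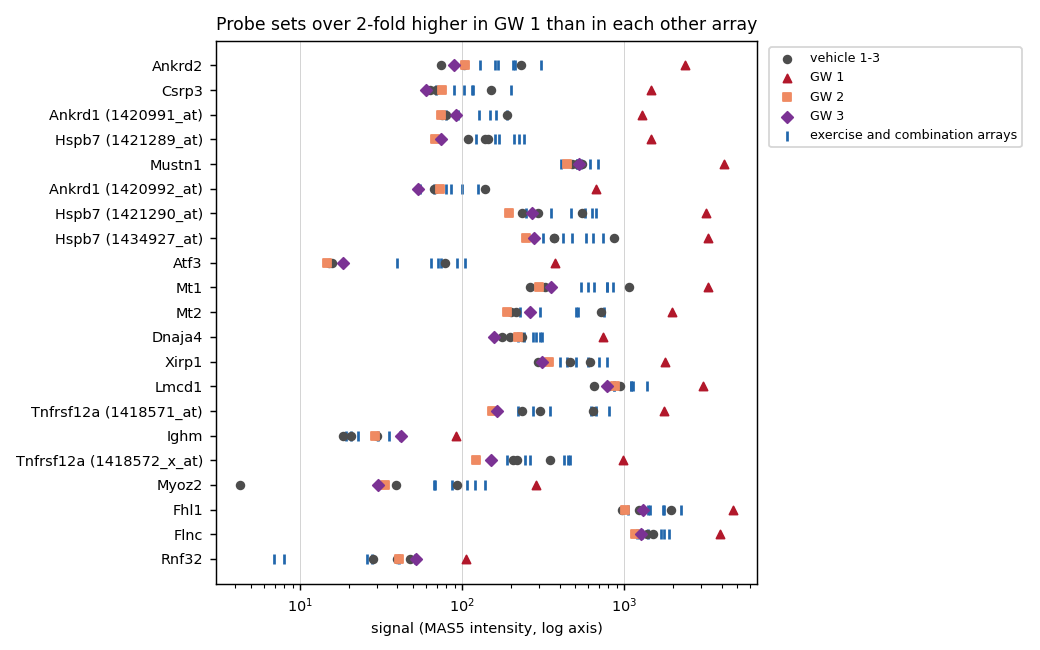
Signal on a log axis, 1 point per array, of the 21 probe sets with 1 symbol in which GW 1 lay over 2-fold above each other array. GW 1 (red triangles) is alone at the right in every row, and vehicle 1 is the highest of the other sedentary arrays in 18 rows.

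The heat shock list moved with GW 1 as well. Hspb1, a small chaperone, read 4902, 4105 and 3724 with vehicle and 13814, 3892 and 5403 with the drug, and Cryab, alpha B crystallin, read 5889, 4753 and 4371 against 12295, 4534 and 5850. The median over 18 chaperone genes was 0.40 in GW 1, -0.11 in GW 2 and 0.07 in GW 3, and 0 genes passed with or without GW 1. The stretch list's median was 0.39 with all arrays, -0.17 without GW 1, 0.14 without vehicle 3 and 0.76 without GW 2, and its summed signal was 53588 in GW 1 against 34898 to 39168 in the other sedentary arrays. Among the probe sets that passed the drug comparison, GW 1 was the GW array farthest from vehicle in Slc27a1, Fabp3, Slc25a20, Pfkfb3, Gadd45g and both of Ucp3. In Acadl, Mlycd, Dusp10 and both of Acaa2 it lay between GW 2 and GW 3, and in Fbp2 it was the closest to vehicle.

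Probe sets over 2-fold lower in GW 1 than in every other array numbered 69, but vehicle 1 had 94 and GW 3 had 75 such probe sets. These were dim: of the 66 with 1 symbol, 95.5% had a median signal under 100 in the other arrays, against 37.6% of all probe sets tested. Ddb2, a DNA damage recognition gene with the largest gap among them, read 3.02 in GW 1 and 28.6 to 60.2 elsewhere. The value in GW 1 is under 23.5, the 95th percentile of the bacterial controls.

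The drug effect was also read in trained mice, where combination arrays were set against exercise arrays. These share no array with GW against vehicle, but both comparisons used the same estimate of the spread from all 12 arrays. There 22 probe sets passed (0.162%), and 5 of the 13 sedentary calls were among them: Acadl, Fbp2, Slc27a1, 1 of the Ucp3 probe sets and 1 of the Acaa2 probe sets. All 13 had the same sign in trained mice, against 50.6% of all probe sets tested, and the Pearson correlation of the 2 effects over all 13575 probe sets was 0.01, a description over points that share arrays. Without combination 1, 83 probe sets passed in trained mice, and of the 13 again 5 passed and 13 had the same sign.

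In Slc27a1, Fbp2, the Slc25a20 probe set that passed and the brighter Acaa2 probe set the sizes were close. Slc27a1 read 122, 146 and 157 in exercise arrays and 364, 431 and 442 in combination arrays, a log2 fold change of 1.55 in trained against 1.53 in sedentary mice. Fbp2 read 725, 831 and 749 against 1687, 1919 and 1720, a log2 fold change of 1.21 in both. The intervals of the difference between trained and sedentary effects ran from -0.44 to 0.48 for Slc27a1 and from -0.35 to 0.35 for Fbp2. In Acaa2 probe set 1428146_s_at the effect was 0.62 in trained against 0.68 in sedentary mice (interval of the difference -0.31 to 0.19), and in Slc25a20 probe set 1423109_s_at it was 0.75 against 0.87 (-0.58 to 0.34). The other Slc25a20 probe set, 1423108_at, gave 0.60 against 0.90 (-0.79 to 0.19).

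For the other 9 probe sets the size in trained mice was smaller by more, though no probe set passed the test of the difference. In Ucp3 probe set 1420657_at the exercise arrays already read 1049, 1105 and 953 and the combination arrays 1253, 1298 and 1354, so the drug effect was 0.33 in trained against 1.18 in sedentary mice (difference -0.84, 95% confidence interval -1.20 to -0.48, unadjusted p = 0.000162 in limma). Pfkfb3 read 2169, 1982 and 2186 in exercise arrays and 1982, 1615 and 1443 in combination arrays, an effect of -0.34 against -1.40 (unadjusted p = 0.00156). Gadd45g read 1324, 1401 and 1094 against 1454, 1232 and 831, an effect of -0.15 against -1.19 (unadjusted p = 0.000953). For Dusp10 the effect was -0.43 against -0.85 in the probe set that passed, but -0.86 against -0.90 in its other probe set, 1417163_at. In all, 8 of the 13 had an unadjusted interaction p under 0.05, and 11 had the smaller size in trained mice. These 13 were picked for their sedentary difference, which the interaction contains, so the 2 counts are descriptions. Over all probe sets 0 (0%) passed the interaction test, 922 had an unadjusted p under 0.05, and the smallest adjusted p was 0.102.

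**Figure D5:**
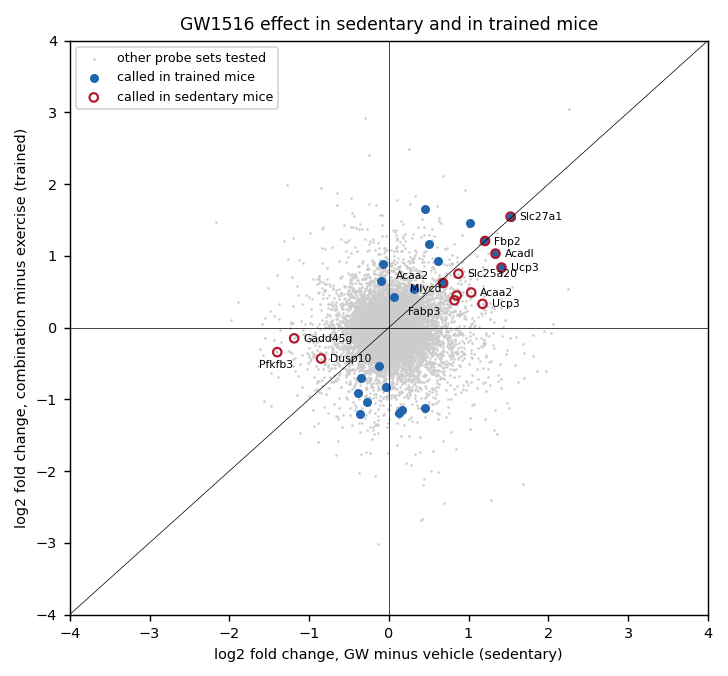
Log2 fold change with GW1516 in sedentary mice (horizontal) and trained mice (vertical) for the 13575 probe sets tested, with red rings for the 13 that passed in sedentary mice, blue points for the 22 that passed in trained mice and a diagonal for equal effects. All 13 rings lie in the quadrants of equal sign, and those of Slc27a1 and Fbp2 lie on or near the diagonal.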

How the data were processed

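Total RNA of quadriceps muscle was hybridised to oligonucleotide arrays, 1 array per pool of 3 mice. The deposited values are linear signal intensities that the authors made with MAS5, per the submitters' processing notes; its version and scaling target are not given in the sources used here. With the lowest and highest 2% of values left out, array means were 200.09 to 200.10. Of 22690 probe sets, 64 controls were left out. The signals were log2-transformed with no pseudocount and no further scaling, and the upper 60% by mean over the 12 arrays, 13575 probe sets, were tested: 12512 had 1 symbol in the array annotation, 436 several and 627 none.

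In R 4.3.3 with limma 3.58.1, 1 coefficient per group was fitted on all 12 arrays, which left 8 residual degrees of freedom, and variances were moderated along an intensity trend. All p-values are two-sided, were adjusted by Benjamini and Hochberg's method over every probe set tested, and were called under 0.05. Leaving out GW 1 kept the other 11 arrays.

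For 36 gene lists each gene was read from its brightest probe set with 1 symbol, and lists are described by counts and medians. Named were all probe sets that passed, the 8 with the smallest p that did not in each direction, calls without GW 1, up to 10 genes a direction in which GW 1 stood apart, up to 5 members of a list, and a set of PPAR, fibre and stress genes. The members, lists and alternatives were chosen with earlier results of these data known. Promoters came from RefSeq (GRCm38.p6). The procedure was tested on simulated data. Figures were drawn with matplotlib 3.10.9. Alternatives covered normalization, filters, a pseudocount, the variance model, array weights, the arrays fitted, array number as a block, 1 probe set per gene and each array left out.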

Additional observations from a re-analysis of the deposited data

How the results depend on the processing

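Of 23 alternatives, 0 reversed the direction of a called probe set. Acadl, Fbp2, Slc27a1, Mlycd and both Ucp3 probe sets passed in every alternative that tested them. Pfkfb3 missed the threshold without an intensity trend and with only the groups compared, the brighter Acaa2 probe set with only the groups compared, Fabp3 in 3 alternatives, Gadd45g in 5, the dimmer Acaa2 probe set in 6, Dusp10 in 8 and Slc25a20 in 14 of 22. Of 203 named probe sets that did not pass, 9 passed in at least 1 alternative.

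The 10 higher calls became 17 with array weights and 6 when only the 6 vehicle and GW arrays were fitted. The 3 lower calls became 0 without an intensity trend, where 7 probe sets passed in all, and 1 with only the groups compared, and lay between 1 and 3 when each array was left out, with 1 without vehicle 2 and 1 without vehicle 3. The 22 calls in trained mice became 4 without a trend, 39 with array weights, 40 with only the groups compared, and 8 to 83 when each array was left out, with 83 without combination 1. The 0 calls of the interaction became 1 with array weights, 1 with the replicate block, 1 with 1 probe set a gene, and 0 to 9 when each array was left out, with 9 without combination 1 and 3 without GW 2. The causes were not tested.

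Arrays of the same number were not treated as paired in the main fit. Deviations from the group means correlated at 0.08, 0.10 and 0.06 between vehicle and GW arrays of the same number. Between arrays of different numbers they correlated at -0.08 to -0.01, and every array correlated best with its own number. Deviations cancel within a group, so positive values for the same number come with negative ones between numbers. The contrast between them is partly built in. The labels do not say whether the number marks a shared batch, and this was not tested. With the array number as a replicate block, 9 probe sets were higher and 2 lower, and Dusp10 and Slc25a20 no longer passed. The number of arrays and signals near background limit the dim genes.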
